A study of Mus musculus with 6 samples.

Results

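The subject is a set of 7 mouse genes linked to adenosine handling, Entpd1, Nt5e, Cd38, Adora2a, Dpp4, Ada and Adk. Their RNA was measured in CD4SP and CD8SP induced T (iT) cells, which carry CD4 alone or CD8 alone. The genes were picked by name, and all 7 were found among the 23420 rows of the expression table. All 7 passed the filter on low values that left 10476 genes for testing. The iT cells arose in B-NDG mice, a NOD strain that carries Prkdc scid, lacks Il2rg and so has almost no T, B or NK cells of its own, after transplantation of blood progenitors derived in culture from iR9 embryonic stem cells. These donor cells were of C57BL/6 background, carried CD45.2 and held a doxycycline-inducible Runx1-p2a-Hoxa9 cassette at Rosa26, which CD4SP and CD8SP iT cells therefore shared. The recipients carried CD45.1, were young adults and were irradiated at a sublethal dose, and spleens were taken in the fifth week after transplantation. The study's sort included CD45.2+, Ter119- and CD11b-, and then CD4+ or CD8+, with no antibody against NK cells and no activation marker in it. Each of the 6 libraries, 3 per population, came from 1000 cells. The study treats each library as a biological replicate, but the sources do not say which libraries came from separate mice, so the p-values below measure the spread between these libraries.

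Adenosine outside cells is made largely from released ATP. CD39, encoded by Entpd1, cuts ATP and ADP down to AMP, and CD73, encoded by Nt5e, removes the last phosphate to give adenosine. CD38 consumes NAD at the cell surface, which can feed another route to AMP, and adenosine acts on T cells mainly through the receptor encoded by Adora2a, which raises cyclic AMP and dampens signalling from the T cell receptor. Adenosine is cleared by adenosine deaminase (Ada), which turns it into inosine, or by adenosine kinase (Adk), which turns it back into AMP. Dpp4 encodes the surface peptidase CD26, which in human cells also anchors adenosine deaminase.

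Of the 7 genes, Nt5e was higher in CD4SP iT cells and Ada was higher in CD8SP iT cells, by over 2-fold in each case. Adk was also higher in CD4SP iT cells, by less than 2-fold. For Entpd1, Cd38, Adora2a and Dpp4 the libraries of both populations overlapped and the differences missed the threshold of the test. The enzyme that forms adenosine and an enzyme that removes it thus differed in opposite directions, while the receptor was the lowest of the 7 in each population.

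A gene was called when its limma adjusted p was under 0.05 and its difference on the log2(TPM + 1) scale was over 2-fold, where TPM is a transcript abundance corrected for gene length and scaled to a fixed library total. By this rule 2 of the 7 genes were called, 1 in each direction, while 1019 of all 10476 tested genes (9.73%) passed it, 830 (7.92%) with CD4SP higher and 189 (1.8%) with CD8SP higher. By adjusted p alone 3 of the 7 passed, against 20.8% of all tested genes. The CD4SP and CD8SP libraries did not overlap for 3 of the 7 genes, against 43.2% of all tested genes. The median log2 difference of all tested genes, CD4SP minus CD8SP, was 0.28, and differences are therefore also given relative to it. In these bulk libraries, fewer cells that express a gene and less of its RNA per cell cannot be told apart.

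The sorted populations carried the markers of their labels, with the CD4 T cell list summing to 359 to 410 TPM in CD4SP and 2.1 to 3.29 TPM in CD8SP libraries, and the CD8 T cell list to 24.9 to 38.9 TPM and 3236 to 3562 TPM. All 8 T cell genes stood at 1 TPM or more in every library. The 2 gamma delta T cell genes with a row were listed at 0 in all libraries, and other lists were at 0 in part. Of 5 NK cell genes, Ncr1 and Klra8 were listed at 0 in all libraries and the other 3, Klrb1c, Klre1 and Gzma, were called higher in CD8SP, with list sums of 50.4 to 123 TPM in CD4SP and 1516 to 1825 TPM in CD8SP. Of 8 myeloid genes, all 6 libraries had S100a8 and S100a9 at 0, Itgax and Cd68 were called higher in CD8SP (17.2 to 18.1 and 13.5 to 17.5 TPM there) and Lyz2 was called higher in CD4SP. Of 6 B cell genes, Ms4a1 and Pax5 were listed at 0 in all libraries, Cd22 was called higher in CD8SP, and Cd79b stood at 10.9 to 21.6 TPM over the 6 libraries. Of 5 plasma cell genes, Prdm1 and Xbp1 were called higher in CD4SP. Library totals ran from 997896 to 998100 TPM. Of these totals, ribosomal protein genes took 25.4% ± 2.57 (SD, n = 3) among CD4SP and 33.0% ± 2.02 (SD, n = 3) among CD8SP libraries, so this share moved with the population. With those genes removed and the libraries rescaled, Nt5e and Ada were still called.

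The upstream sequences of Ada and Adk are shown because these 2 genes, the enzymes that remove adenosine, differed in opposite directions. Each is the 250 bases before a RefSeq start (GRCm38.p6), written 5′ to 3′ on the strand of the gene. Ada lies on chr2:163726584-163750239 (minus strand) and its window is chr2:163750240-163750489. Adk lies on chr14:21052574-21448569 (plus strand) and has 2 starts in RefSeq, with windows chr14:21052324-21052573 and chr14:21075902-21076151. Capitals mark every match, on either strand, to GGGCGG (a GC box) or CCGGAA (the core that ETS factors bind).
Ada: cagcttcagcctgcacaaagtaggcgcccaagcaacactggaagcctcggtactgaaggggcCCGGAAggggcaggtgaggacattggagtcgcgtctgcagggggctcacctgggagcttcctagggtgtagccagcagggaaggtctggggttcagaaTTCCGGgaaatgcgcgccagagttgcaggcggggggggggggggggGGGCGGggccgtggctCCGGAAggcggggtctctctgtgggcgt
Adk, start 1: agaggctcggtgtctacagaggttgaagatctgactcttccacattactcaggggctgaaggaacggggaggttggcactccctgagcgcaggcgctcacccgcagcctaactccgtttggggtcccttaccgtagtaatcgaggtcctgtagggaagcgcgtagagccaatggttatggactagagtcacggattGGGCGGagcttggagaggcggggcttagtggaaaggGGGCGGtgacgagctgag
Adk, start 2: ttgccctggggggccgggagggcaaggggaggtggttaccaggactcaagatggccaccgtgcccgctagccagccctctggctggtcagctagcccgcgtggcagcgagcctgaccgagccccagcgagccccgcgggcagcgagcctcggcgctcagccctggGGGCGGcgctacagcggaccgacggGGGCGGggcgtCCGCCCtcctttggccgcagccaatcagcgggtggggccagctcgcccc

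The Ada window held 1 GC box and 3 matches to CCGGAA, and the Adk windows held 2 and 3 GC boxes and no match to CCGGAA. Of all 32851 RefSeq windows of the same length, 32.7% held a GC box and 12.03% held CCGGAA on either strand. The G and C content was 67.2% in the Ada window and 58.8% and 75.2% in the Adk windows, where the median of all windows was 52.4%. CG dinucleotides numbered 14 in the Ada window and 15 and 24 in the Adk windows, with a median of 6 over all windows.

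Windows were read for 6 of the 7 genes, 8 windows in all, and not for Adora2a. The Nt5e window had 72.0% G and C, 21 CG dinucleotides and 4 GC boxes, in 2 overlapping pairs. In GENCODE all 250 bases of the Nt5e window, and all 250 of the Cd38 window, lie in exons of those genes, so these windows are transcribed sequence and are not printed. The Entpd1, Cd38 and Dpp4 windows held no GC box and no CCGGAA, and the Dpp4 window held 1 match to TATAAA, which 12.4% of all windows hold. No window of the 6 genes held TGACGTCA, the full cyclic AMP response element, or TGTGGT or TGCGGT, the core bound by RUNX factors, while 1.55% and 18.6% of all windows did. These matches describe letters in the windows only, and their part in any difference was not tested.

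**Figure D1:**
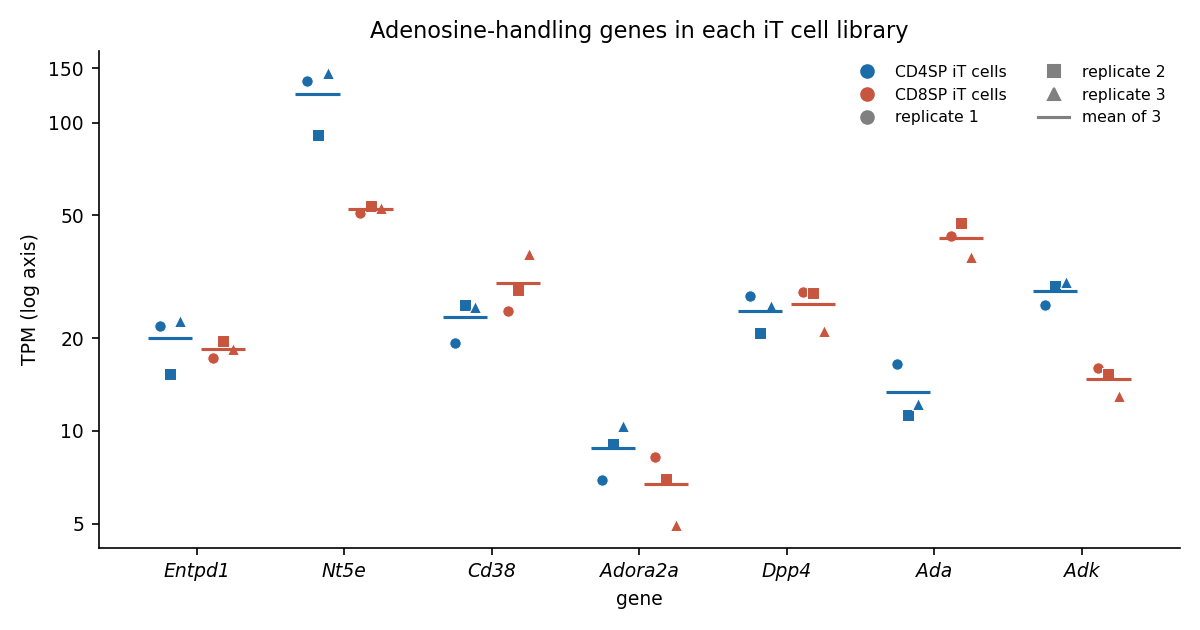
TPM of the 7 genes in each library (points, CD4SP and CD8SP replicates 1 to 3), with the mean of the 3 libraries of each population as a line; the axis is logarithmic. Nt5e and Adk of CD4SP lie above CD8SP without overlap, Ada lies below it without overlap, and the other 4 genes overlap.

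Entpd1, which starts the pathway by cutting ATP and ADP, lies on chr19:40612366-40741602 (GRCm38, plus strand). CD4SP replicates 1 to 3 held 21.9, 15.3 and 22.8 TPM of it, and CD8SP replicates 1 to 3 held 17.2, 19.5 and 18.5 TPM. The CD8SP values lay inside the range of the CD4SP values, which was set by a low replicate 2. Means were 20.02 ± 4.09 and 18.4 ± 1.14 TPM (SD, n = 3 each). The log2 difference was 0.096 (95% interval -0.35 to 0.54, limma adjusted p = 0.746), and its sign turned under each of the 3 other scalings. Entpd1 was therefore not given a direction.

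Nt5e, the enzyme that forms adenosine from AMP, lies on chr9:88327197-88372092 (plus strand). CD4SP replicates 1 to 3 held 136, 91.1 and 144 TPM of it. CD8SP replicates 1 to 3 held 51.1, 53.7 and 52.7 TPM. The lowest CD4SP library, replicate 2, still lay well above every CD8SP library, and the CD8SP libraries were close to each other. Mean levels were 124 ± 28.7 TPM in CD4SP and 52.5 ± 1.35 TPM in CD8SP (SD, n = 3 each), a ratio of 2.36. On the log2(TPM + 1) scale the difference was 1.19 (SE 0.18, 95% interval 0.78 to 1.61, limma adjusted p = 0.00327), or 0.91 above the median of all genes. Nt5e was called in the main comparison, and under the 2 scalings that centre this median it passed the adjusted p but fell below 2-fold, at 0.89 and 0.95.

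Markers of regulatory T cells, in which Nt5e and Entpd1 are well known to be expressed, moved with the population. The 12 genes of that list summed to 3536 to 3821 TPM in CD4SP and 392 to 455 TPM in CD8SP libraries. Of the 12, 10 were called higher in CD4SP, beside 7.92% of all tested genes. None was at 0 except Gpr83, listed at 0 in the CD8SP libraries. Foxp3, the defining factor of these cells, was measured at 142, 6.56 and 167 TPM in CD4SP and at 7.48, 7.48 and 10.05 TPM in CD8SP replicates 1 to 3 (limma adjusted p = 0.1005). CD4SP replicate 2, the lowest CD4SP library for Nt5e and Entpd1, was also the lowest of the 3 for 6 of these 12 genes, Foxp3 among them, the highest for 3 (Gpr83, Lrrc32 and Izumo1r) and between the others for 3. In that library Nt5e lay above all CD8SP libraries, Foxp3 lay below them, and the list sum lay far above them. Without CD4SP replicate 2 the Nt5e difference was 1.40, and the part of regulatory T cells in it was not tested.

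Cd38, the NAD-consuming enzyme, lies on chr5:43868553-43912375 (plus strand). CD4SP replicates 1 to 3 held 19.3, 25.7 and 25.2 TPM of it, and CD8SP replicates 1 to 3 held 24.5, 28.7 and 37.6 TPM. The populations overlapped through CD8SP replicate 1, and CD8SP replicate 3 stood highest. Means were 23.4 ± 3.56 and 30.3 ± 6.71 TPM (SD, n = 3 each), and the log2 difference was -0.35 (95% interval -0.81 to 0.12, limma adjusted p = 0.248). The difference was below 0 in all 17 alternatives and passed the threshold in none of them. Cd38 is also made by B and myeloid cells, whose lists summed to 17.6 to 23.9 and 17.7 to 33.9 TPM in CD4SP and to 27.4 to 29.3 and 37.9 to 42.2 TPM in CD8SP libraries, and the part of such cells was not tested.

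The receptor Adora2a, on chr10:75316877-75334784 (plus strand), was measured at 6.91, 9.10 and 10.4 TPM in CD4SP and at 8.22, 6.99 and 4.95 TPM in CD8SP replicates 1 to 3. The populations overlapped, with the lowest CD4SP library below 2 of the CD8SP libraries. Means were 8.80 ± 1.76 and 6.72 ± 1.66 TPM (SD, n = 3 each). The log2 difference was 0.35 (95% interval -0.22 to 0.92, limma adjusted p = 0.333), an interval that holds both no difference and a difference of nearly 2-fold. Its sign turned under quantile normalization, at -0.024. Of the other adenosine receptors, Adora1 and Adora2b were listed at 0 in all libraries, and Adora3 at 0.643, 0.734 and 0 TPM in CD4SP and at 0 in every CD8SP library.

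Dpp4, the peptidase CD26, lies on chr2:62330073-62412231 (minus strand). CD4SP replicates 1 to 3 held 27.4, 20.8 and 25.5 TPM of it, and CD8SP replicates 1 to 3 held 28.3, 27.9 and 21.1 TPM. The lowest library of each population lay near 21 TPM and the ranges were almost the same. The log2 difference was -0.067 (95% interval -0.49 to 0.35, limma adjusted p = 0.817) and turned sign when CD4SP replicate 2 or CD8SP replicate 1 was left out. An antisense gene, Gm13561, shares 232 of the 6319 exonic bases of Dpp4, and whether strand was used is not stated.

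Ada, the deaminase that removes adenosine, differed most of the 7 genes. CD4SP replicates 1 to 3 held 16.5, 11.3 and 12.2 TPM of it. CD8SP replicates 1 to 3 held 42.9, 47.4 and 36.7 TPM. The highest CD4SP library was below every CD8SP library by a wide margin. Means were 13.4 ± 2.81 TPM in CD4SP and 42.3 ± 5.35 TPM in CD8SP (SD, n = 3 each), so that the CD8SP mean was 3.17 times the CD4SP mean. The log2 difference was -1.60 (SE 0.19, 95% interval -2.04 to -1.17, limma adjusted p = 0.00106), or -1.89 relative to the median of all genes. Ranked by log2 difference from the lowest up, Ada stood at percentile 0.974 of all tested genes, and it was called in all 17 alternatives.

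Some genes of effector and memory T cells, and the 3 tested NK cell genes, were higher in CD8SP, as Ada was. The 10 genes of that list summed to 4553 to 5636 TPM in CD4SP and 18341 to 18589 TPM in CD8SP libraries, and none was at 0 in any library. Of these 10, Ccl5, Nkg7, Gzma and Eomes were called higher in CD8SP, Cd44 was called higher in CD4SP, and the other 5 were not called. Of all tested genes, 1.8% were called higher in CD8SP and 7.92% higher in CD4SP. Of the NK cell genes, Klre1 stood at 3.77 to 9.28 TPM in CD4SP and 37.2 to 46.2 TPM in CD8SP, Klrb1c at 0.682 to 1.82 and 5.22 to 9.14 TPM, and Gzma, which is also on the effector list, at 39.8 to 116 and 1471 to 1773 TPM, while Ncr1 and Klra8 were at 0. Genes of naive T cells summed to 1249 to 1510 and 1220 to 1420 TPM, and 0 of 7 were called. The part of effector cells and of NK cells in the Ada difference was not tested.

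Adk, the kinase that returns adenosine to AMP, stood at 25.7, 29.5 and 30.4 TPM in the CD4SP libraries, replicates 1 to 3. CD8SP replicates 1 to 3 held 16.0, 15.2 and 13.02 TPM. The lowest CD4SP library lay above the highest CD8SP library, and replicates were close within each population. Means were 28.5 ± 2.50 and 14.8 ± 1.55 TPM (SD, n = 3 each), a ratio of 1.93. The log2 difference was 0.91 (SE 0.16, 95% interval 0.53 to 1.28, limma adjusted p = 0.00695), or 0.62 above the median of all genes. Adk was thus higher in CD4SP iT cells without reaching the fold needed for a call, and its adjusted p was under 0.05 in all 17 alternatives.

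**Figure D2:**
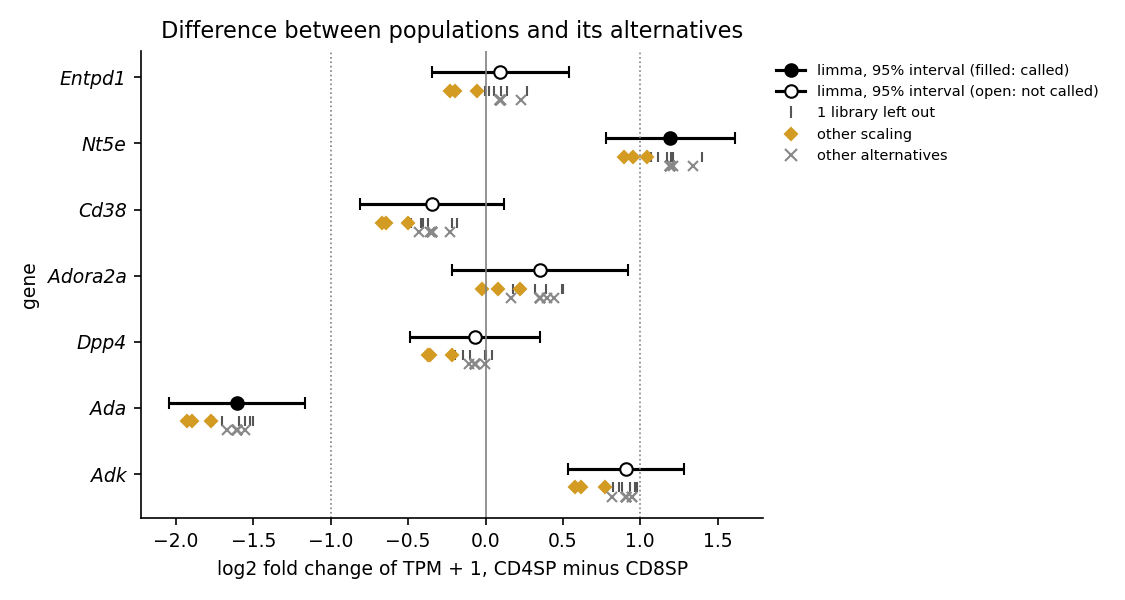
Log2 difference of each of the 7 genes, CD4SP minus CD8SP, on the log2(TPM + 1) scale, with its 95% interval from limma (circle, filled where called) above the values under the alternatives (ticks, 1 library left out; diamonds, other scalings; crosses, all others); the solid line marks 0 and the dotted lines 2-fold. The Nt5e and Ada points lie beyond the threshold on opposite sides, 2 scalings take Nt5e to 0.89 and 0.95, and the intervals of Entpd1, Cd38, Adora2a and Dpp4 cover 0.

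The ratio of TPM of a pair of genes within a library does not change when all values of that library are multiplied by the same factor. The ratio of Ada to Adk was 0.645, 0.382 and 0.402 in CD4SP and 2.68, 3.11 and 2.82 in CD8SP replicates 1 to 3. Deaminase RNA was thus below kinase RNA in every CD4SP library and above it in every CD8SP library. The ratio of Entpd1 to Nt5e was 0.161, 0.168 and 0.158 in CD4SP and 0.338, 0.363 and 0.351 in CD8SP. Although Entpd1 and Nt5e each varied among CD4SP libraries, their ratio did so little, at 0.162 ± 0.00538 (SD, n = 3) against 0.351 ± 0.0128 (SD, n = 3) in CD8SP.

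The ratio of Dpp4 to Ada was 1.65, 1.84 and 2.09 in CD4SP and 0.660, 0.590 and 0.576 in CD8SP. RNA of the peptidase was above that of the deaminase in every CD4SP library and below it in every CD8SP library. The ratio of Cd38 to Nt5e was 0.142, 0.282 and 0.175 in CD4SP and 0.479, 0.534 and 0.713 in CD8SP, so that Nt5e stood above Cd38 in all 6 libraries. The populations did not overlap in any of the 4 ratios. For each, tested as the difference of log2(TPM + 1), the exact two-sided permutation p was 0.1 (0.1 after Benjamini-Hochberg adjustment over the 4), the smallest that 3 libraries against 3 can give, so none could pass 0.05. Each of these ratios contains Nt5e or Ada and so is not separate from the differences of those genes.

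**Figure D3:**
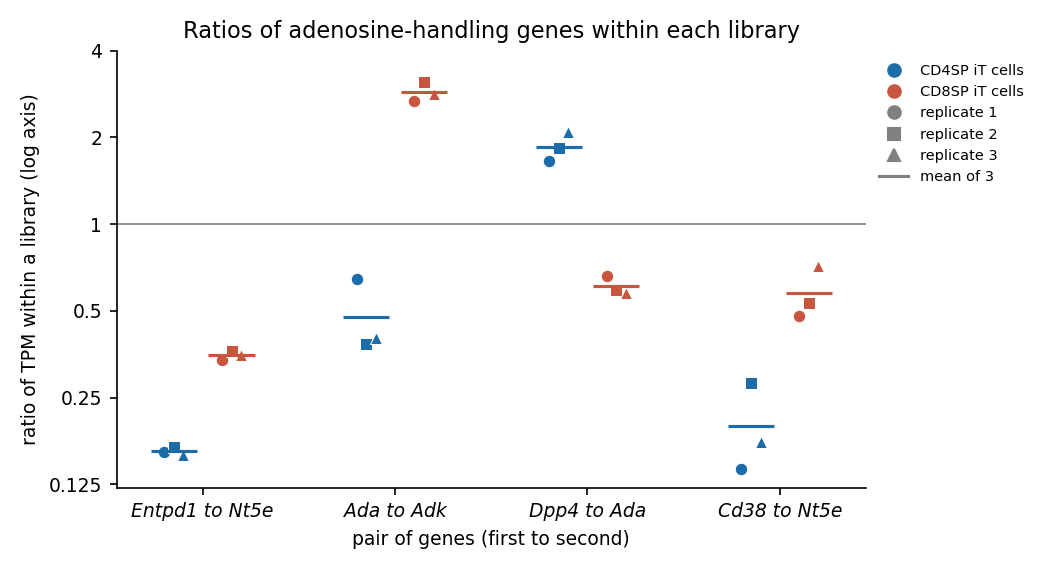
Ratio of TPM of 4 pairs of genes in each library (points; logarithmic axis), with CD4SP and CD8SP side by side and the mean of each population as a line. The populations do not overlap in any pair, and the Ada to Adk and Dpp4 to Ada ratios fall on opposite sides of 1.

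By mean TPM, a scale that corrects for gene length, the order in CD4SP iT cells was Nt5e, Adk, Dpp4, Cd38, Entpd1, Ada and Adora2a. Nt5e stood apart at the top and Adora2a at the bottom, and each pair of neighbours from Adk to Ada had overlapping ranges. In CD8SP iT cells the order was Nt5e, Ada, Cd38, Dpp4, Entpd1, Adk and Adora2a, and only the neighbours Ada and Cd38, and Cd38 and Dpp4, overlapped. Ada thus stood sixth in CD4SP and second in CD8SP, and Adk second and sixth.

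The genes whose pattern was most like each of the 7 were ranked by Pearson r of log2(TPM + 1) over the 6 libraries among 6735 genes with a mean of at least 10 TPM. These 6 points form 2 populations and share their scaling, so r is only a description. Among the nearest genes to Nt5e were Ddx5 and Samhd1 (r = 0.999 each), to Ada Rrp9 (0.999), and to Adk Kbtbd11 (0.9995) and Fam104a (0.999). For Nt5e and Adk 619 and 474 genes had r over 0.95, and for Ada 106 did. The other 4 genes had 60 or fewer such neighbours, 60 for Entpd1 (nearest Usp14, 0.997, and Gspt1, 0.991), 43 for Dpp4 (Mical1, 0.998, and Abtb2, 0.997), 15 for Adora2a (Dusp19, 0.993, and H2afv, 0.984) and 6 for Cd38 (Ppp2r4, 0.984, and Tmsb10, 0.968).

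The 7 genes were then set among 130 genes of adenosine, ATP, cyclic AMP and NAD handling, of which 129 had a row, 22 were listed at 0 in every library and 87 were tested. Of these 87 genes, 14 (16.1%) were called, 10 with CD4SP higher and 4 with CD8SP higher, beside 9.73%, 7.92% and 1.8% of all tested genes. Without the 7 genes, 12 of 80 (15%) were called, 9 and 3 in each direction. The median log2 difference of the 87 was 0.35, beside 0.28 for all tested genes. The split of 10 and 4 became 7 and 7 under median-of-ratios rescaling and 7 and 8 under quantile normalization, so the list had no direction that held over the scalings.

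**Figure D4:**
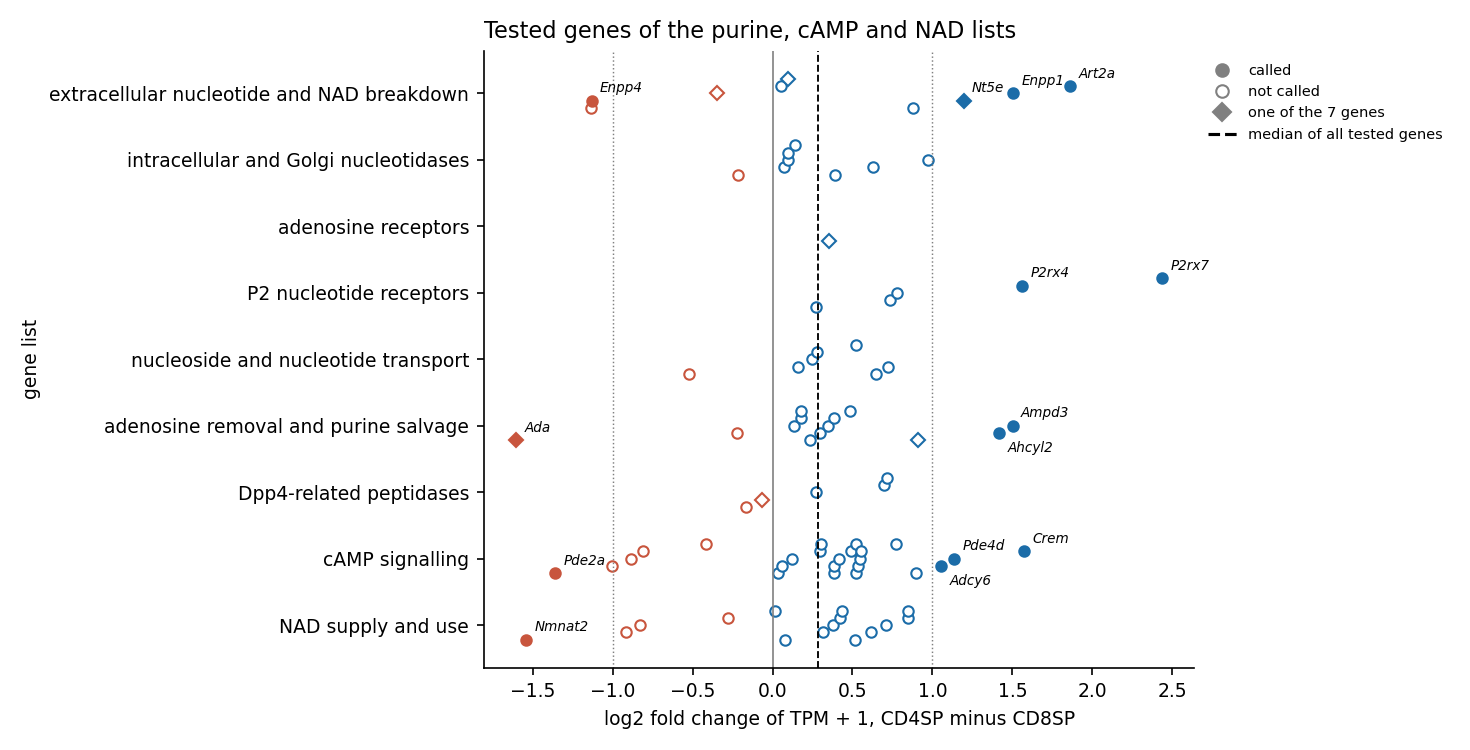
Log2 difference, CD4SP minus CD8SP, on the log2(TPM + 1) scale of the tested genes of each list (circles, or diamonds for the 7 genes; filled where called; blue above 0 and red below), with the median of all tested genes (0.28) as a dashed line and 2-fold as dotted lines. Called genes carry their names. Among the intracellular nucleotidases, the transporters and the Dpp4 relatives no gene was called.

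Among the 9 tested genes of extracellular nucleotide breakdown, 4 (44.4%) were called, beside 9.73% of all tested genes. Of the 4, 3 were higher in CD4SP (Nt5e among these) and the other was higher in CD8SP. Enpp1, which splits ATP to AMP and pyrophosphate, rose in CD4SP, with 7.94 to 15.05 TPM there and 2.63 to 4.41 TPM in CD8SP (log2 difference 1.51, limma adjusted p = 0.00867). Enpp4, a relative that splits dinucleotides, was higher in CD8SP, at 4.98 to 5.65 TPM against 1.32 to 2.36 TPM (-1.13, limma adjusted p = 0.0146). The Enpp4 call was lost with CD8SP replicates 1 and 2 averaged and without CD4SP replicate 3, CD8SP replicate 1 or CD8SP replicate 2, and Enpp4 did not pass the filter of 5 TPM. Art2a, a relative of the surface ADP-ribosyltransferases, was listed as Art2a-ps, a pseudogene name, and whether its RNA gives a working enzyme was not tested. Its RNA stood at 6.11 to 10.4 TPM in CD4SP and 0.772 to 2.19 TPM in CD8SP (1.86, limma adjusted p = 0.00465). Art2b, which uses the NAD that CD38 consumes, was not called, at 6.75 to 17.6 and 9.59 to 11.3 TPM.

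Of the receptors for ATP and other nucleotides, 5 were tested and 2 (40%) were called, both higher in CD4SP, beside 7.92% of all tested genes. P2rx7, an ATP-gated channel well known in T cells, stood at 27.9 to 37.1 TPM in CD4SP and 2.83 to 7.86 TPM in CD8SP (log2 difference 2.44, limma adjusted p = 0.00128). P2rx4, another such channel, stood at 16.8 to 21.4 and 3.53 to 9.88 TPM (1.56, limma adjusted p = 0.0107). P2ry10, a lipid-binding relative, passed the adjusted p and fell short of 2-fold, at 97.2 to 131 and 60.0 to 69.8 TPM (0.78, limma adjusted p = 0.00865), and its value is uncertain because 443 nt are near-identical to P2ry10b.

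No gene among 7 transporters and channels for nucleosides and ATP was called. Panx1, a channel that lets ATP out, stood at 90.8 to 114 TPM in CD4SP and 73.5 to 92.4 TPM in CD8SP (log2 difference 0.28, limma adjusted p = 0.196). Slc29a1, which carries adenosine across the membrane, passed the adjusted p and fell short of 2-fold, at 61.2 to 75.5 and 44.2 to 47.3 TPM (0.52, limma adjusted p = 0.0301). Slc28a2, which takes up purine nucleosides, was not called (0.25, limma adjusted p = 0.257), and most of its transcript is near-identical to Gm14085. None of 8 intracellular nucleotidases was called, and Nt5c, the most abundant of them, stood at 276 to 361 and 220 to 275 TPM (0.39, limma adjusted p = 0.0867). Nt5c2 passed the adjusted p and fell short of 2-fold (0.97, limma adjusted p = 0.0240), and was called with a pseudocount of 0.1 and without CD8SP replicate 2. Among the 5 tested genes of the peptidase list, which holds Dpp4 itself, none was called. Dpp9 stood at 28.8 to 34.5 and 22.5 to 31.1 TPM (0.27, limma adjusted p = 0.278). Dpp7 and Prep passed the adjusted p and fell short of 2-fold (0.72 and 0.70, limma adjusted p = 0.0258 and 0.0264).

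The list that holds Ada and Adk, adenosine removal and purine salvage, had 13 tested genes. Besides Ada, Ahcyl2 and Ampd3 were called, and both were higher in CD4SP. The called share of the list was 23.1%, beside 9.73% of all tested genes. Ahcyl2, a relative of the hydrolase that frees adenosine from S-adenosylhomocysteine, stood at 21.5 to 33.9 TPM in CD4SP and 6.92 to 11.9 TPM in CD8SP (log2 difference 1.42, limma adjusted p = 0.00590). Ampd3, which deaminates AMP, stood at 2.82 to 4.96 and 0.395 to 1.26 TPM (1.502, limma adjusted p = 0.0113), and did not pass the filter of 5 TPM. Pnp, the phosphorylase that acts on the inosine made by Ada, was not called, at 45.2 to 64.5 TPM in CD4SP and 39.4 to 43.5 TPM in CD8SP (0.38, limma adjusted p = 0.122). The salvage enzymes Aprt and Hprt, the most abundant of the list, differed by 0.13 and 0.23 (limma adjusted p = 0.399 and 0.420), with overlapping libraries. Ada was the only called gene of this list that was higher in CD8SP.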

How the data were processed

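RNA was measured in 3 CD4SP and 3 CD8SP libraries of 1000 sorted cells each. Whole-transcriptome cDNA was amplified, transposase libraries were sequenced, and the authors aligned the reads to mm10 with HISAT2, estimated expression with StringTie and deposited TPM, in which reads are divided by gene length and scaled to a fixed total. Strand use, duplicate removal and the sharing of multi-mapped reads are not given in the sources used here. Since TPM holds no depth, library depth is unknown, and no counting interval was computed.

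The 7 genes and all gene lists were chosen with earlier results of these data known. A gene was tested where 3 or more of the 6 libraries reached 1 TPM. limma 3.58.1 in R 4.3.3, with a variance trend on the mean level, was fitted across all 10476 such genes on log2(TPM + 1) with population as its term. Its p-values were adjusted by Benjamini-Hochberg over all of them. A gene was called at an adjusted p under 0.05 and a change of over 2-fold on this scale, a criterion taken from the study. The DESeq2 test that the study names needs counts and was not used. The fit was tested on simulated data. Ratios of genes were compared with an exact two-sided permutation test. Alternatives changed the pseudocount (to 0.1), the filter (none, or 5 TPM), the scaling (median-of-ratios, quantile, or ribosomal protein genes removed), the variance trend (none), the library weights, the replicate block, the fold threshold (none), the averaging of CD8SP replicates 1 and 2, and the libraries used (each left out in turn).

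Genes named were the 7, the called genes of the lists, up to 3 uncalled genes of each list with the highest mean TPM, the marker genes, and the 2 genes of at least 10 TPM most like each of the 7. Other listed genes named in the text (Adora2b, Nt5c2, Pnp, Pde3b and Prep) were chosen after their values were seen. A few items that this rule covers are not reported here. Of the 130 listed genes, 5 were matched through an older symbol of RefSeq (GRCm38.p6) and 1 had no matching row. Positions are from GENCODE M21 (GRCm38, the assembly of mm10). Copies were searched with blastn 2.17.0 against all annotated transcripts, at 95% identity over at least 200 nt, and none of the 7 genes had one. The table held 0 columns without a sample.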

Additional observations from a re-analysis of the deposited data

How the results depend on the processing

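Over 17 alternatives, Ada was called in all (log2 difference -1.93 to -1.50, adjusted p 0.000177 to 0.00741) and Nt5e in 15 (0.89 to 1.40, adjusted p 0.000108 to 0.0171). Median-of-ratios rescaling and quantile normalization, which move the median of all genes from 0.28 to 0.0013 and -0.015, gave Nt5e at 0.89 and 0.95, under 2-fold, and left 1 of the 7 genes called (Ada). Of the called genes, those with CD4SP higher went from 81.5% to 62.1% and 57.1% over the whole table, and from 71.4% to 50% and 46.7% over the listed genes. Entpd1 turned sign under both (-0.20 and -0.23) and with ribosomal protein genes removed (-0.052), and Adora2a under quantile normalization (-0.024); the cause was not tested. With no fold threshold Adk was called (0.91), and 29 listed genes were. Leaving out 1 library gave Entpd1 -0.0033 to 0.27, Nt5e 1.07 to 1.40, Cd38 -0.48 to -0.18, Adora2a 0.17 to 0.50, Dpp4 -0.20 to 0.045, Ada -1.76 to -1.50 and Adk 0.82 to 0.98, with 2 of the 7 genes called each time and 12 to 16 listed genes. Entpd1 turned sign without CD4SP replicate 3 (-0.0033), and Dpp4 without CD4SP replicate 2 (0.045) or CD8SP replicate 1 (0.0045). With a replicate block, limma adjusted p was 0.00532 for Nt5e, 0.00226 for Ada and 0.0231 for Adk, and 2 of the 7 genes and 13 listed genes were called. Deviations from the population mean were correlated at -0.0168 to 0.0887 between same-numbered libraries of the populations and at -0.0866 to 0.0671 between other-numbered ones. Taken within only 3 libraries per population, they cannot show whether same-numbered libraries share a mouse, which is not stated. The 4 ratios kept their direction in 8 alternatives each. TPM hides the depth, which limits low genes such as Adora2a.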

Other observations

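Of the genes that act after the Adora2a receptor, 24 genes of cyclic AMP signalling were tested. Of these, 4 (16.7%) were called, 3 with CD4SP higher and 1 with CD8SP higher, beside 9.73%, 7.92% and 1.8% of all tested genes. The median log2 difference of the 24 was 0.40, beside 0.28 for all tested genes. Crem, a transcription factor induced by cyclic AMP, was measured at 38.4, 30.6 and 40.3 TPM in CD4SP and at 10.1, 10.4 and 14.5 TPM in CD8SP replicates 1 to 3 (log2 difference 1.57, limma adjusted p = 0.00132). The populations did not overlap. Pde4d, a phosphodiesterase that breaks down cyclic AMP, stood at 11.1 to 12.9 TPM in CD4SP and 4.35 to 5.70 TPM in CD8SP (1.13, limma adjusted p = 0.00598), and Adcy6, a cyclase that makes it, at 2.28 to 3.20 and 0.602 to 0.990 TPM (1.06, limma adjusted p = 0.0259). Pde2a, a phosphodiesterase stimulated by cyclic GMP, went the other way, with 36.0, 29.5 and 30.5 TPM for CD4SP against 84.1, 89.0 and 77.3 TPM for CD8SP replicates 1 to 3 (-1.36, limma adjusted p = 0.000506). Pde3b was also lower in CD4SP by adjusted p and fell short of 2-fold, at 6.58 to 9.96 and 13.1 to 16.7 TPM (-0.89, limma adjusted p = 0.0239), and was called under median-of-ratios rescaling, quantile normalization and removal of ribosomal protein genes, and without CD4SP replicate 3. Gnas, which encodes the G protein that the receptor uses, differed by 0.031 (limma adjusted p = 0.908). The longest transcript of Pde2a matches Gm45837 at 99.6% over 3851 nt, and Adcy6, Ahcyl2 and Crem have shorter near-identical stretches in other genes, so their values are uncertain. Pde4d and Adcy6 lost their calls under median-of-ratios rescaling and quantile normalization. Adcy6 also lost it with the replicate block, with CD8SP replicates 1 and 2 averaged, under the filter of 5 TPM, which it does not pass, and without CD4SP replicate 1 or 3 or CD8SP replicate 1 or 2.

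Of 15 tested genes of NAD metabolism, which supplies the substrate of CD38, 1 (6.67%) was called, beside 9.73% of all tested genes. Nmnat2, an enzyme of NAD synthesis, was listed at 0.342, 0.306 and 0.223 TPM in CD4SP and at 3.17, 2.99 and 2.18 TPM in CD8SP replicates 1 to 3 (log2 difference -1.54, limma adjusted p = 0.00590). All 3 CD4SP libraries were under 1 TPM, where the log2(TPM + 1) scale understates a difference, and the gene did not pass the filter of 5 TPM. Sirt2, an NAD-dependent deacetylase, passed the adjusted p and fell short of 2-fold (0.51, limma adjusted p = 0.0324).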
